A study of Mus musculus with 8 samples.

Results

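The protein components of the cytosolic ribosome were followed in muscle stem cells (MuSCs) of mice on a Vitamin A-free (VA-free) or a control (CTRL) diet. The set was defined by name alone, as the protein-coding genes with Rpl, Rps or Rplp symbols of Ensembl 96 together with Rpsa, Rack1 and Fau, and without the Rps6 kinases. It holds 81 of 36047 genes with transcripts in the files, and 80 of them passed the expression filter, 48 of the 60S and 32 of the 40S subunit. Rpl10l, a paralog of Rpl10, had no counts in any library. The naming rule leaves out some ribosomal proteins, of which Rps3a1, Rps27l, Rpl22l1 and Rpl36al are given separately.

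MuSCs were sorted by their nuclear GFP from the quadriceps and gastrocnemius of male Pax7-nTnG mice (Pax7CreERT2-Rosa26 nTnG) aged 5 to 6 months. In these mice tamoxifen activates a Cre driven by Pax7, which switches a reporter to nuclear GFP, so the sort depends on Pax7 activity. All mice carried these alleles and received tamoxifen, and the diets, VA-free for 3 mice and control chow for 2, lasted 8 weeks. RNA of a mouse was split into technical replicates A and B, and 8 libraries were analysed. CTRL mice gave 1A, 1B, 2A and 2B, and VA-free mice gave 1B, 2A, 3A and 3B, in that order in all lists of values here.

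Ribosomal proteins are made in equal proportions and assemble with ribosomal RNA in the nucleolus. Their mRNAs are short, very abundant and long lived, and most begin with a C followed by an uninterrupted run of pyrimidines, the 5′ terminal oligopyrimidine (TOP) tract. Through this tract and the RNA binding protein LARP1, the kinase complex mTORC1 controls their translation together, so that ribosome production can change without a change in mRNA level. Quiescent MuSCs hold few ribosomes and little cytoplasm, and building ribosomes is part of their activation.

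The start regions of the members at the ends of the range are shown, since the TOP tract is the sequence feature the family shares. RefSeq promoter entries (GRCm38.p6) matched 61 of the 81 members. The members printed are the 5 with the lowest and the 5 with the highest log2 fold change among those with an entry, leaving out members on 1 chromosome that is not shown here. Each sequence runs from 30 bases before the annotated start to 30 bases from it, on the strand of the gene, and capitals mark runs of at least 8 C or T. The members with the lowest log2 fold changes on the VA-free diet come first.
Rpl39l (chr16:10170198-10170257, plus strand): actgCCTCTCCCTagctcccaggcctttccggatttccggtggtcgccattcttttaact
Rpl35 (chr2:39005102-39005161, minus strand): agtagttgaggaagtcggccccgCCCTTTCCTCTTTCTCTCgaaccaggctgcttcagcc
Rpl38 (chr11:114668550-114668609, plus strand): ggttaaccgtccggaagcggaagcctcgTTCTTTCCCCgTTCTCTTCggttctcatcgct
Rpl31 (chr1:39367821-39367880, plus strand): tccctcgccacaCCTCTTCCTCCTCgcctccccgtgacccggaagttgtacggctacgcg
Rps24 (chr14:24490648-24490707, plus strand): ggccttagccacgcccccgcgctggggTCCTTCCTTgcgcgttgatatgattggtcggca
Rps2 (chr17:24720033-24720092, plus strand): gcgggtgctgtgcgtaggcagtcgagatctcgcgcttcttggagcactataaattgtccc
Rpl12 (chr2:32961682-32961741, plus strand): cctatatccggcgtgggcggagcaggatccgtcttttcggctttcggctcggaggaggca
Rpl4 (chr9:64173357-64173416, plus strand): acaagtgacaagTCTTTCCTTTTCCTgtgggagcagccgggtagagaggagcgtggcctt
Rpsa (chr9:120127736-120127795, plus strand): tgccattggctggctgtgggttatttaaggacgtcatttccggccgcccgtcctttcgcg
Rpl5 (chr5:107900498-107900557, plus strand): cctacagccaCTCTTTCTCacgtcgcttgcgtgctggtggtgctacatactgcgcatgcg

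A pyrimidine run of at least 8 bases lay within these 60 base windows, on the sense strand, for 35 of the 61 members with an entry (57.4%), against 25.8% of all 27025 genes with an entry. The longest run among the windows shown, 18 bases, belonged to Rpl35. In the whole 300 base entries, searched on both strands, CTCTTT was found for 47.5% of members and 25.6% of genes, ACTTCC for 47.5% and 26.5%, AAGATGG for 16.4% and 7.28%, and TATAAA for 9.84% and 15.7%. These motifs were counted without regard to overlap between them. An entry with a run was found for 15 of 23 members called lower on the VA-free diet and for 20 of 37 tested members that were not. A match is a description of letters, and an annotated start can lie some bases away from the start used in these cells.

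The libraries held between 44831232 and 88650428 estimated counts, so counting error was small for all members except the paralogs Rpl3l and Rpl39l. MuSC markers were detected in every library, and 11 of 12 were higher on the VA-free diet, with a summed level of 8638 to 8889 CPM (counts scaled to library size) against 2526 to 4908 in CTRL libraries. Markers of other cells differed as well. All 12 endothelial markers were lower on the VA-free diet (summed 275 to 356 CPM against 1230 to 3353), as were 9 of 9 Schwann cell markers (504 to 519 against 979 to 1422) and 6 of 7 tenocyte markers (40.5 to 68.6 against 624 to 1180.1). Lower calls were also made for 4 of 12 macrophage and monocyte markers (28 to 169 CPM against 192 to 883), 5 of 8 pericyte and smooth muscle markers (899 to 1217 against 2480 to 3222), 7 of 13 myofiber markers (368 to 493 against 557 to 664) and 4 of 5 tested erythroid markers (30.7 to 245 against 1188 to 1953). Of 10 fibro-adipogenic markers 6 were lower and 1, Col3a1, was higher, and the sum was 17500.2 to 19259 CPM against 8527 to 14756. Of 16 dissociation and immediate early genes 3 were lower and 3 higher, with sums of 35944 to 40098 and 26634 to 40552 CPM. Outside the erythroid list no marker was at 0 in all libraries of a diet. Their part in the results below was not tested. In bulk RNA, fewer cells of a type and less RNA per cell cannot be told apart.

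To ask whether the diet altered expression of the ribosomal protein genes, the 5 mice were compared with edgeR. Most members stood slightly lower in VA-free MuSCs. Of the 80 tested, 67 had a log2 fold change (VA-free over CTRL) below 0, 31 passed the threshold as lower and 1, Rpl5, as higher. The median was -0.33, where the median of all 17997 genes was 0.00. Over all genes 22.5% were called lower and 18.9% higher, so the members called lower (38.8%) exceeded that background and those called higher fell short of it in this fit. Most genes of that background had longer transcripts than the members, and shares within classes of length are given below. In 10 of 30 alternatives the share called lower was below that of all genes. It was 15% against 17.5% without VA-free mouse 1, 16.2% against 18.8% without VA-free mouse 2, 20% against 20.4% without CTRL mouse 1, 15.2% against 16.1% without CTRL library 2B, and 11.4% against 17.7% with 1 library per mouse. The other 5 of these alternatives changed the scaling or the treatment of length. Without CTRL mouse 2 the share was 55% against 21.3%. Of the 60S members 17 of 48 were lower and 1 higher, with a median of -0.31, and of the 40S members 14 of 32 were lower and none higher, with a median of -0.37. The plot of changes by subunit shows the 60S members between Rpl35 at -0.93 and Rpl5 at 0.38, leaving out Rpl3l and Rpl39l, and the 40S members between Rps29 at -0.91 and Rpsa at 0.28.

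**Figure D1:**
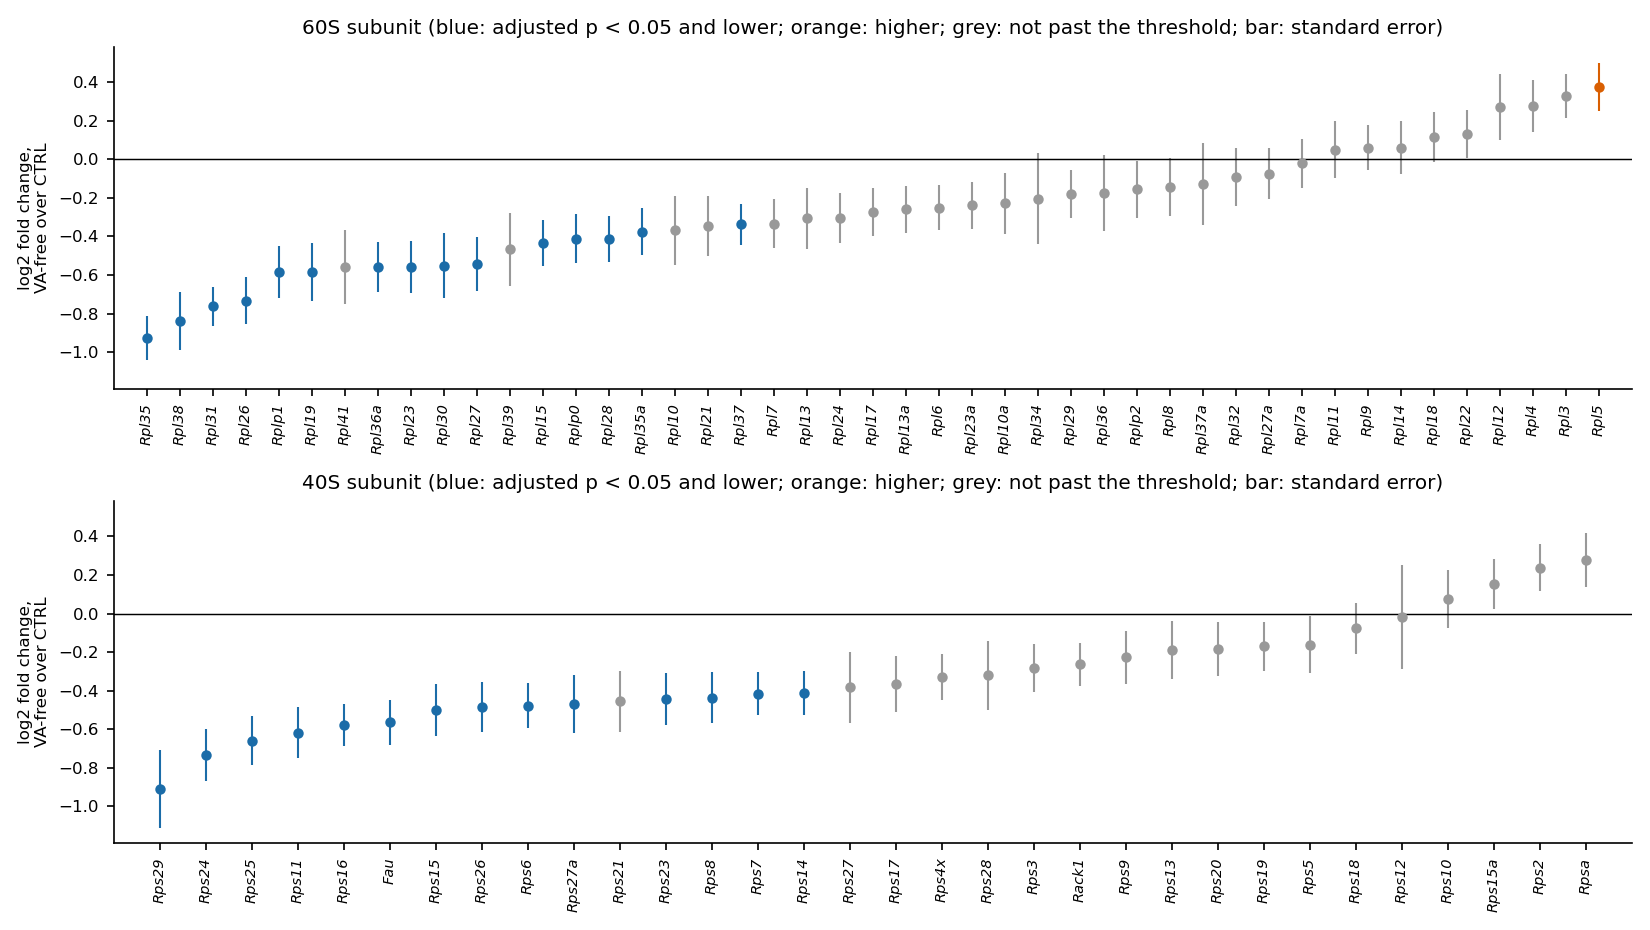
Log2 fold change (VA-free over CTRL) of 77 of the 80 tested members, ordered within the 60S (top) and the 40S subunit (bottom), with standard errors from edgeR as bars. Most points lie below 0, from Rpl35 at -0.93 to Rpl5 at 0.38, and blue points passed the threshold as lower.

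Mice on different diets had no overlap in 51 of the 80 members, against 63.3% of all genes tested. Single libraries did not overlap for 34 members, against 41.3% of all genes. The counts of 51 and 34 members were close to those backgrounds. Of the 31 members called lower, 28 had no overlap between libraries, and Rpl35a, Rpl37 and Rpl39l had one. Calls and overlap rest on the same counts, so these 28 add no support. The matching share over all genes called lower was not computed.

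**Figure D2:**
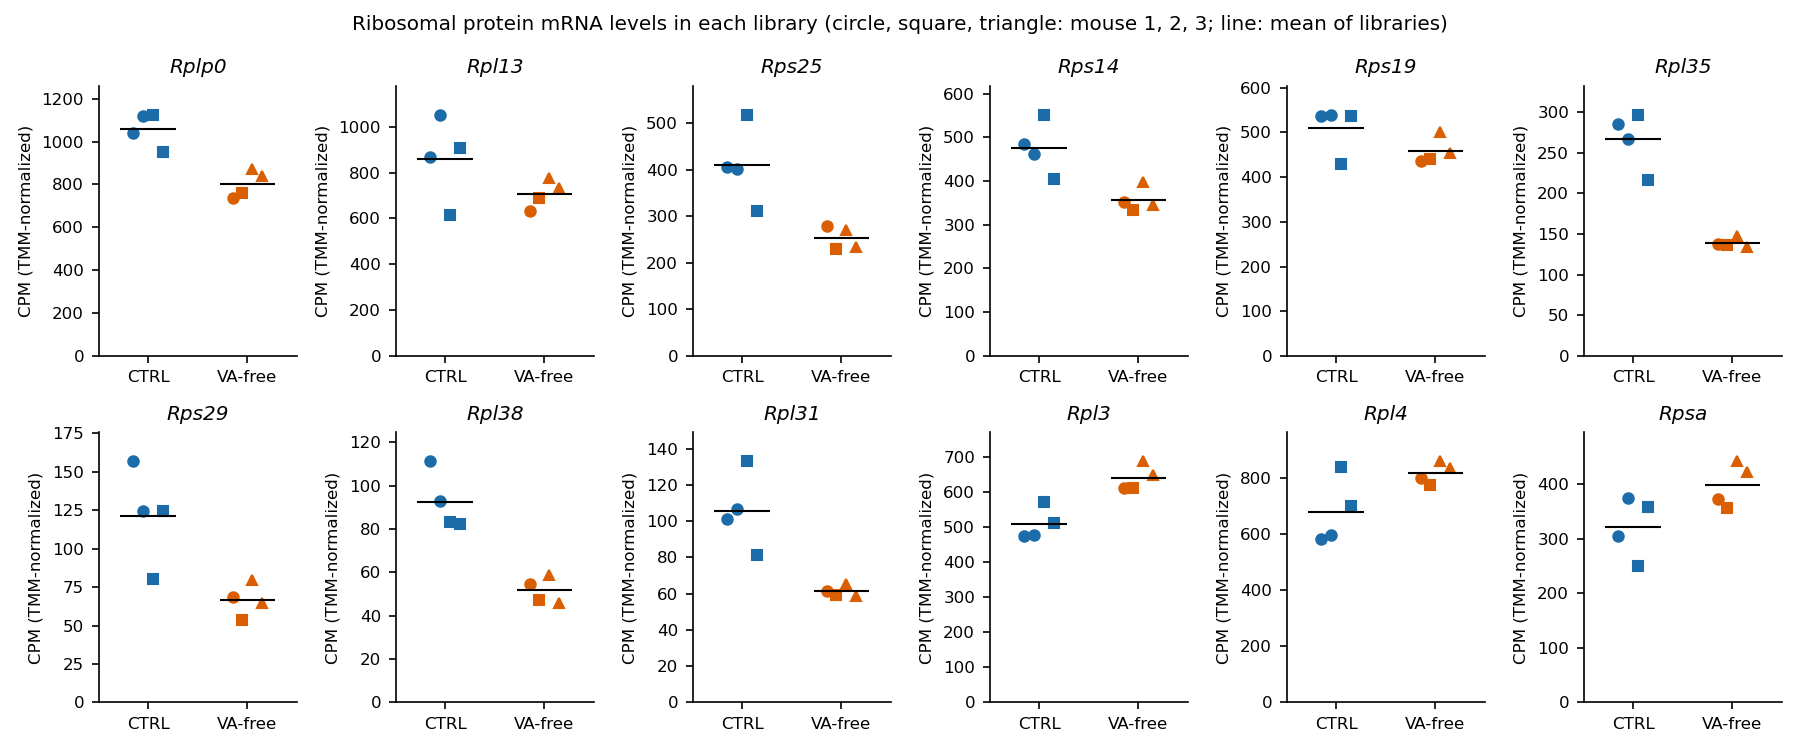
TMM-normalized CPM of 12 members in each library, with CTRL in blue, VA-free in orange, the marker shape giving the mouse and the line the mean of the 4 libraries. Rplp0, Rps25, Rps14, Rpl35, Rps29, Rpl38 and Rpl31 lie lower in every VA-free library, Rpl3 lies higher in every one, and the diets overlap for Rpl13, Rps19, Rpl4 and Rpsa.

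Per unit of length, Rpl13, a 60S protein, was among the most abundant members, with a mean of 1723 TPM (transcript level scaled by length). It stood at 631, 688, 777 and 734 CPM in VA-free libraries and at 869, 1051, 614 and 908 CPM in CTRL libraries. CTRL 2A was the lowest of all 8, and the log2 fold change of -0.31 did not pass the threshold (adjusted p = 0.167).

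Rps19, whose human counterpart is the gene most often mutated in Diamond-Blackfan anemia, was the most abundant 40S member at 1712 TPM. Its VA-free libraries held 435, 439.7, 502 and 454 CPM and its CTRL libraries 538, 539, 430.2 and 537 CPM. The libraries overlapped through CTRL 2A, and the log2 fold change was -0.17 (standard error, SE, 0.13, adjusted p = 0.325). Rps25, which some viral mRNAs need to recruit the 40S subunit, held 280.0, 231, 271 and 234 CPM in VA-free and 405, 402, 518 and 312 CPM in CTRL libraries. Its mean per mouse was 257 ± 27.8 CPM (SD, n = 3) against 406 ± 16.0 CPM (SD, n = 2), and it was lower on the VA-free diet (log2 fold change -0.66, SE 0.13, adjusted p = 0.00672). Exons of Trappc4 and Ccdc84 on the other strand cover 17.2% and 7.66% of its exonic bases, and the kit keeps no strand, so reads there cannot be assigned with certainty. Rps14, a protein of the 40S platform, held 333 to 398 CPM in VA-free and 405 to 551 CPM in CTRL libraries and was lower (log2 fold change -0.41, SE 0.11, adjusted p = 0.0258).

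Rplp0, Rplp1 and Rplp2 form the ribosomal stalk, which recruits elongation factors. Rplp0, its base, held 735, 761, 874 and 839 CPM in VA-free libraries and 1040.4, 1117, 1125 and 953 CPM in CTRL libraries, and was lower (log2 fold change -0.41, SE 0.13, adjusted p = 0.037). Rplp1, which binds Rplp0 together with Rplp2, held 118 to 143 CPM and 171 to 207 CPM and was lower (log2 fold change -0.59, adjusted p = 0.0127). For Rplp2 the ranges were 76.3 to 101 CPM and 67.2 to 105 CPM, and the log2 fold change of -0.16 did not pass the threshold (adjusted p = 0.445). Rplp0 and Rplp1 thus passed the test and Rplp2 did not, and the differences between these 3 were not tested.

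Among the 40S members with their own names, Fau encodes a ribosomal protein fused to a ubiquitin-like domain. Its VA-free libraries held 85.4, 77.8, 96.4 and 83.6 CPM and its CTRL libraries 125, 132, 147 and 104 CPM, a log2 fold change of -0.56 (SE 0.12, adjusted p = 0.00872). Rack1, a scaffold on the 40S head that binds signaling kinases, held 284 to 326 CPM in VA-free and 313 to 435 CPM in CTRL libraries, with a log2 fold change of -0.26 (adjusted p = 0.106). Rpsa, also known as a laminin receptor, held 373, 356, 441 and 421 CPM in VA-free and 305, 374, 251 and 358 CPM in CTRL libraries, with a log2 fold change of 0.28 (adjusted p = 0.161). Rps6, the substrate of S6 kinase downstream of mTORC1, held 335 to 388 CPM and 429.8 to 586 CPM and was lower (log2 fold change -0.48, SE 0.12, adjusted p = 0.0166).

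The 5 lowest log2 fold changes belonged to Rpl39l, Rpl35, Rps29, Rpl38 and Rpl31. Rpl35, which sits at the exit of the peptide tunnel and lies at 39001580 to 39005624 of chromosome 2, held 138, 136, 148 and 134 CPM in VA-free and 286, 267, 297 and 216 CPM in CTRL libraries. It fell to 52.6% of the CTRL mean, a log2 fold change of -0.93 (SE 0.11, adjusted p = 0.00112). Exons of Wdr38 on the other strand cover 66.2% of the annotated exonic bases of Rpl35. Rps29, a zinc-binding protein of the 40S head, held 68.8, 53.8, 79.3 and 64.9 CPM in VA-free and 157, 125, 80.5 and 124 CPM in CTRL libraries, with CTRL 2A close to the VA-free range. Its log2 fold change was -0.91 (SE 0.20, adjusted p = 0.0106).

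Rpl38, which in the mouse embryo is needed for translation of a group of Hox mRNAs, held 54.8, 47.4, 58.7 and 45.9 CPM in VA-free and 111, 92.9, 83.5 and 82.3 CPM in CTRL libraries (log2 fold change -0.84, adjusted p = 0.00483). Rpl31, a 60S protein near the tunnel exit, held 61.6, 59.1, 65.6 and 59.0 CPM and 101, 107, 133 and 81.3 CPM (log2 fold change -0.76, adjusted p = 0.00148). Both genes were lower in every VA-free library than in any CTRL library. Exons of Tbc1d8 on the other strand cover 25.3% of the annotated exonic bases of Rpl31. Rpl39l, a paralog of Rpl39 known from testis, had 0, 0, 2 and 0 counts in the VA-free libraries, and 22, 16, 2 and 11 counts in CTRL 1A, 1B, 2A and 2B. The 2 VA-free counts against 51 CTRL counts make a ratio of 0.0332 with an exact 95% counting interval of 0.00391 to 0.126, and the fitted log2 fold change of -4.84 (adjusted p = 0.0197) depends on the prior count. Rpl3l, the paralog of Rpl3 known from striated muscle, had between 3 and 37 counts in VA-free and between 6 and 54 in CTRL libraries and did not pass the threshold (log2 fold change -0.49, adjusted p = 0.528).

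The 5 highest log2 fold changes were those of Rpl5, Rpl3, Rpsa, Rpl4 and Rpl12. Rpl3, which reaches toward the peptidyl transferase centre, held 612, 611, 688 and 648 CPM in VA-free and 473, 479, 572 and 513 CPM in CTRL libraries. The libraries did not overlap, yet the log2 fold change of 0.33 (SE 0.12) stayed outside the threshold at an adjusted p of 0.0582. Rpl4, a 60S protein lining the peptide tunnel, held 775 to 858 CPM in VA-free libraries, while CTRL 2A, at 838 CPM, lay far above the other CTRL libraries (582 to 698 CPM). Its log2 fold change was 0.28 (adjusted p = 0.141). Rpl5 and Rpl11 carry the 5S RNA into the ribosome and restrain Mdm2 when assembly fails. Rpl5 held 38.5, 34.7, 33.3 and 36.2 CPM in VA-free and 26.3, 27.4, 30.9 and 28.2 CPM in CTRL libraries and was called higher (log2 fold change 0.38, SE 0.13, adjusted p = 0.0494). Exons of Fam69a on the other strand cover 24.3% of the annotated exonic bases of Rpl5. Rpl11 ranged from 64.1 to 81.2 CPM and from 56.6 to 81.4 CPM (log2 fold change 0.05, adjusted p = 0.812).

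The Rpl5 call changed when the counts of near-identical sequences were added. Ribosomal protein genes have many processed pseudogenes, and 974 pseudogenes shared at least 10% of a transcript's 31 base words with a member, touching 78 of the 81 members. When the counts of 306 copies, which shared at least 50%, were added to their members, 31 were called lower (background 22.8%) and none higher (background 19%) in edgeR, and 28 of the lower calls were those made without the copies. For Rpl5, 88.7% of the combined counts lay on copies, mainly Gm15500, and its log2 fold change turned from 0.38 to -0.46 (SE 0.12, adjusted p = 0.0199). The Gm15500 counts alone were 20209, 10612, 10326 and 10534 in VA-free libraries and 15138, 13986, 17627 and 14358 in CTRL libraries, a log2 fold change of -0.56. For Rpl12, which helps form the base of the stalk, 83.7% lay on copies, mainly Gm10275, and the log2 fold change turned from 0.27 to -0.46 (adjusted p = 0.0156).

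For Rpl34, a 60S protein, the counts of a copy differed between libraries of 1 diet. The copy Rpl34-ps1 had 6, 1671, 0 and 0 counts in the VA-free libraries, in their order above, but 1938 to 2580 in CTRL libraries. Rpl34 itself held 96, 59.0, 109 and 94.7 CPM in VA-free libraries, and VA-free 2A, the VA-free library with most copy counts, was the lowest. Why these counts differed was not tested. With the copies added its log2 fold change went from -0.20 (adjusted p = 0.538) to -0.60 (adjusted p = 0.00723). For Rpl11 it went from 0.05 to -0.15, and for Rpl31 from -0.76 to -0.61. The level of such a member depends on its copies, whereas the median of all members moved from -0.33 to -0.34.

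**Figure D3:**
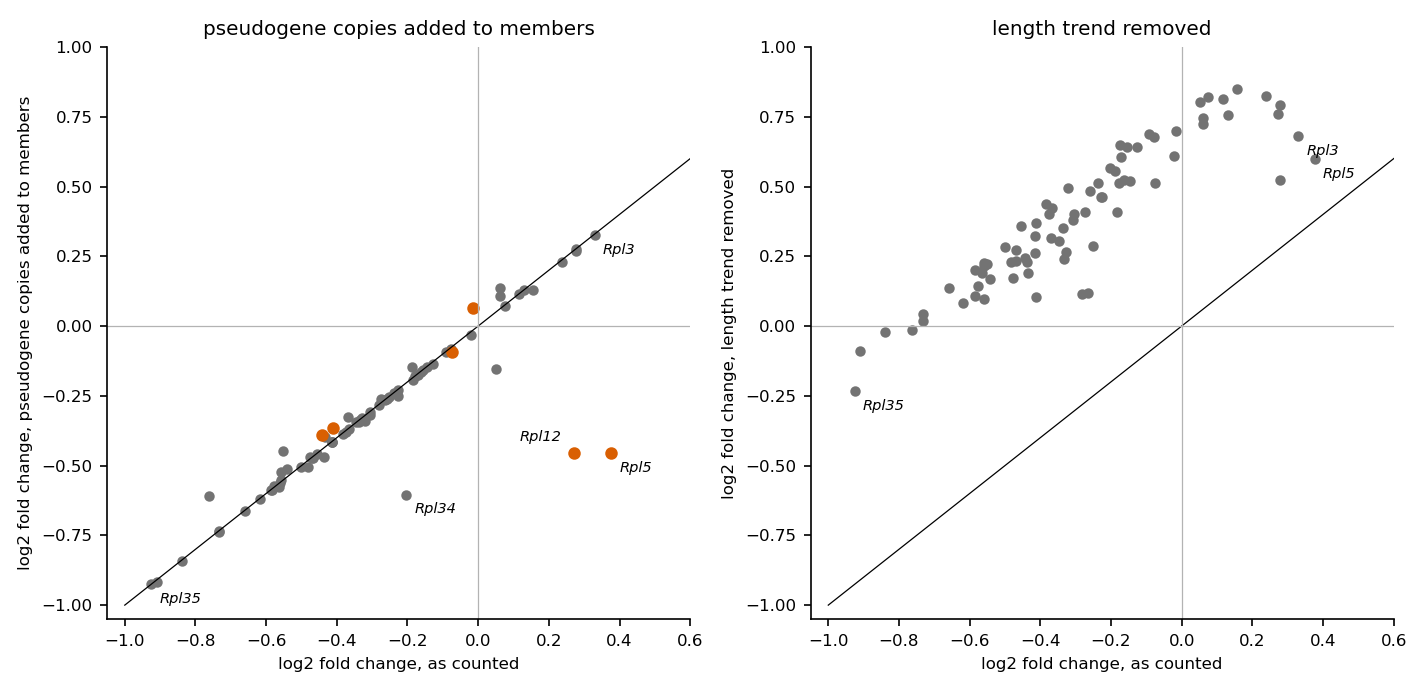
Log2 fold change of 77 members as counted (horizontal axes) against the value with pseudogene copies added (left) and with the trend on transcript length removed (right), with the line of equality. Orange points have more than 50% of their counts on copies. On the left Rpl5, Rpl12 and Rpl34 drop to -0.46, -0.46 and -0.60, and on the right every point lies above the line.

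The comparison moved with transcript length. Members were short, with a median of 670 bases (352 to 1559) against 2122 for all genes tested. Over all genes the log2 fold change rose by 0.36 per doubling of length, and over the 78 members other than Rpl3l and Rpl39l by 0.31 (Pearson r = 0.51, Spearman rho = 0.43, across genes that share the same libraries). Of the short members, Rpl38 (367 bases) and Rps29 (390 bases) were among the lowest, while Rps27, the shortest, was at -0.38 and Rpl36 (383 bases) at -0.17. The 3 longest, Rpl3, Rpl4 and Rpl5, were among the highest. The libraries differed in the same direction, since the mean transcript length weighted by counts was 2657 to 2731 bases in VA-free and 1999 to 2304 bases in CTRL libraries.

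Against genes of their own length, members stood high. Between 500 and 600 bases the median of 20 members was -0.39 and that of 163 other protein-coding genes -1.25. Between 600 and 750 bases the medians were -0.47 for 16 members and -1.15 for 370 others, and between 750 and 1000 bases -0.25 for 22 members and -0.95 for 934 others. Between 1000 and 1600 bases the medians were -0.25 for 11 members and -0.50 for 3027 others. In the shortest class, 350 to 500 bases, 11 members had a median of -0.41 against -1.17 for 112 others. All tested members except Rpl39l, which lay in the 600 to 750 base class, were above the median of the other genes in their class. The share of members called lower was below that of the others in every class. From the shortest class to the longest it was 45.5% against 51.8%, 50% against 52.8%, 56.25% against 62.7%, 27.3% against 60.2% and 9.09% against 41.6%.

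**Figure D4:**
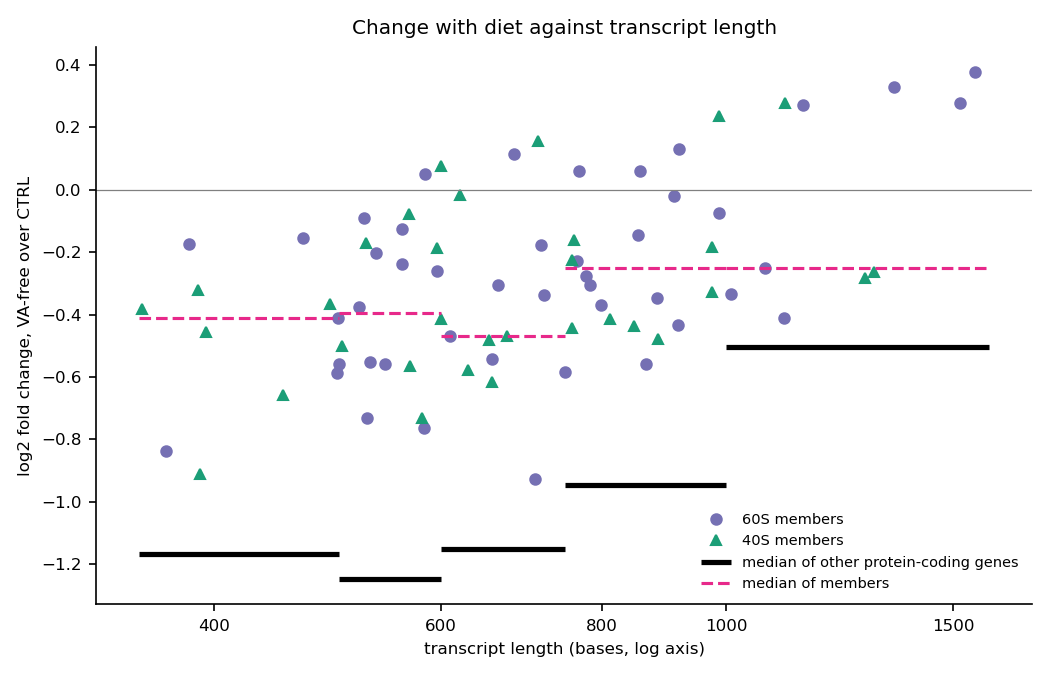
Log2 fold change (VA-free over CTRL) against transcript length on a log axis for 60S (circles) and 40S members (triangles), with the median of members (dashed) and of other protein-coding genes (solid black) in 5 length classes. On balance members rise with length, and their class medians lie above those of other genes of the same length, for example -0.39 against -1.25 between 500 and 600 bases.

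With the length trend of each mouse removed, edgeR called 1 member lower, Rpl39l (background 17.7%), and 34 higher (background 12%). The median of the members turned from -0.33 to 0.37. Over all genes the slope was then -0.08 per doubling of length, against 0.36 before, so a small reversed trend remained. Such a slope favors short transcripts, and its part in the members' values was not tested. Of the 31 lower calls 28 were lost, Rpl35a and Rpl37 became higher, and Rpl39l remained lower. Under this fit Rps19 was at 0.61 (adjusted p = 0.0108), Rplp2 at 0.64 (adjusted p = 0.0136), Rpl11 at 0.80 (adjusted p = 0.00633) and Rpl3 at 0.68 (adjusted p = 0.00623). Rpl35, Rps29, Rpl3l, Rpl38 and Rpl31 came next to Rpl39l at the lower end, between -0.23 and -0.02, and none of these 5 passed the threshold. The direction of the family therefore turned with the treatment of length, while Rpl39l, Rpl35, Rps29, Rpl38 and Rpl31 lay at its lower end in both fits. These members were picked as the lowest of the first fit, and both fits use the same counts, so the repeat adds no support. Libraries of 1 mouse share a diet, and their mean transcript lengths weighted by counts could be compared. They were 2657 and 2663 bases for VA-free 3A and 3B, 2146 and 2209 for CTRL 1A and 1B, and 1999 and 2304 for CTRL 2A and 2B. Length thus differed within CTRL mouse 2 without a difference in diet. Between the diets, diet and length bias cannot be told apart.

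The deposited TPM values are scaled by effective lengths that were equal in all libraries. Between libraries they thus differ from counts by a scale per library and by the mix of transcript forms. They do not remove the length trend. In limma on log2(TPM + 1) the median of the members was 0.10 against 0.19 for all genes, with 4 members lower (background 14.7%) and 13 higher (background 32.2%). The members thus stood below all genes on this scale and above them with the length trend removed. Members took 1.58%, 1.43%, 1.72% and 1.54% of gene counts in VA-free and 1.81%, 1.96%, 1.59% and 1.84% in CTRL libraries, and per mouse 1.55% ± 0.102 (SD, n = 3) against 1.80% ± 0.118 (SD, n = 2). CTRL 2A overlapped the VA-free libraries, and mice did not overlap. Of TPM, members took 4.43%, 3.94%, 4.73% and 4.21% in VA-free and 4.03%, 4.37%, 3.26% and 4.24% in CTRL libraries, and per mouse 4.28% ± 0.295 (SD, n = 3) against 3.97% ± 0.317 (SD, n = 2). VA-free minus CTRL was -0.249 percentage points in counts and 0.309 points in TPM, where mice overlapped. Mitochondrial genes took 0.590% to 0.857% of counts in VA-free and 3.66% to 4.85% in CTRL libraries, and their part in these shares was not tested.

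To describe which members moved relative to the family, libraries were scaled to the summed member counts. By edgeR Rpl39l, Rpl35, Rps29, Rpl38, Rpl31, Rpl26 and Rps24 were then lower (7 members, background 15.4%) and Rps15a, Rps2, Rpl4, Rpsa, Rpl3 and Rpl5 higher (6 members, background 25.8%). Rpl35 stood at -0.65 (adjusted p = 0.00564) and Rpl3 at 0.59 (adjusted p = 0.0147) on this scale. The other 67 tested members did not pass the threshold. Rpl5 is again subject to its copies.

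Technical replicates differed most within CTRL mouse 2. Over 78 members the log2 difference between libraries of a mouse had an SD of 0.0943 for VA-free 3A and 3B, 0.162 for CTRL 1A and 1B, and 0.463 for CTRL 2A and 2B. In the last pair Rpl36 was lowest in 2A relative to 2B, at -1.27, Rps12 was highest at 1.25, and 4 members differed by more than 1. Without CTRL 2A 40 members were called lower (background 21.6%) and 2 higher (background 18%), and without CTRL 2B 12 were lower (background 16.1%) and none higher (background 9.08%).

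Transcript forms differed with diet. Of the 493 member transcripts, 175 are annotated as retained intron, with a median length of 637 bases against 641 for the 231 coding ones. They took 4.20%, 4.35%, 3.90% and 4.09% of member counts in VA-free libraries and 2.94%, 2.85%, 3.04% and 2.82% in CTRL libraries, with no overlap. Of 63 members with such a transcript and at least 100 counts in every library, 24 had a higher share on the VA-free diet with no overlap between libraries (38.1%, background 19.7% of 6577 protein-coding genes) and none a lower share (background 3.5%). Over all protein-coding genes the share was 4.46% to 4.77% in VA-free and 3.65% to 3.74% in CTRL libraries, so the direction was not particular to the members.

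Rps24, a 40S protein whose mRNA is alternatively spliced, had a retained-intron share of 15.7%, 19.4%, 13.6% and 15.7% in VA-free and 3.49%, 5.98%, 3.30% and 3.89% in CTRL libraries. Rps26, a 40S protein at the mRNA exit, had 43.7%, 34.8%, 30.2% and 38.0% against 25.0%, 19.7%, 28.4% and 29.7%. Rplp2 had 8.42% to 13.9% against 0.947% to 4.99%, and Rpl10, which joins the 60S subunit late, 9.22% to 14.3% against 4.81% to 5.93%. Rack1 had 7.84% to 9.35% against 3.50% to 6.44%. For Rpl12 the share was 53.7% to 63.9% against 12% to 31.1%, over 7715 counts in all, and most of its coding reads lay on copies. Counts of these forms are estimates that kallisto divides between overlapping transcripts, and reads of unspliced RNA fall on the same introns.

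**Figure D5:**
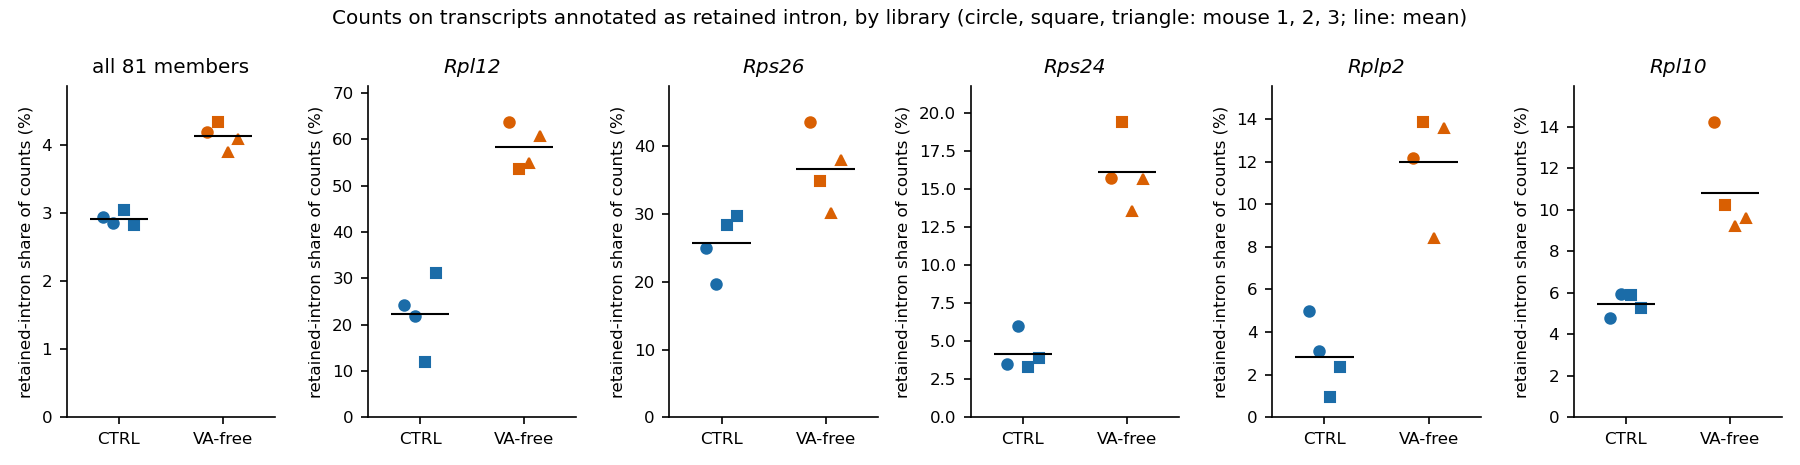
Percent of counts on transcripts annotated as retained intron, for all 81 members together and for 5 members, in each library, with CTRL in blue, VA-free in orange, the marker shape giving the mouse and the line the mean of the 4 libraries. In each panel all VA-free libraries lie above all CTRL libraries, at 3.90% to 4.35% against 2.82% to 3.04% for all members.

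Of the ribosomal proteins outside the naming rule, Rps3a1, a 40S protein, was at 0.01 (adjusted p = 0.94). Rpl22l1, a paralog of Rpl22, was at -0.55 (adjusted p = 0.0174) and Rpl36al, a paralog of Rpl36a, at -0.87 (adjusted p = 0.0017). Rps27l, a p53-responsive paralog of Rps27, was at -1.29 (adjusted p = 0.000446), with 2894 to 6602 counts in VA-free and 6092 to 10154 in CTRL libraries. Rps27 itself was at -0.38 (adjusted p = 0.143). With the length trend removed, edgeR put Rps3a1 at 0.60 (adjusted p = 0.0114) and Rpl22l1 at 0.20 (adjusted p = 0.245). Rpl36al was then at -0.10 (adjusted p = 0.509), Rps27l at -0.52 (adjusted p = 0.0183) and Rps27 at 0.44 (adjusted p = 0.0777).

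Of the wider translation machinery, Eef1a1, which delivers aminoacyl-tRNA, was higher at 0.46 (SE 0.13, adjusted p = 0.0269) and Eef2, which moves the ribosome along, was higher at 0.67 (adjusted p = 0.0065). Eif5a, which relieves stalled ribosomes, was lower at -0.56 (adjusted p = 0.0223) and Eef1b2, an exchange factor of Eef1a1, at -0.38 (adjusted p = 0.0432). These 4 were the calls among 6 elongation factors, whose median was 0.00 (33.3% lower and 33.3% higher, backgrounds 22.5% and 18.9%). Of 17 other TOP mRNAs 5 were lower (29.4%, background 22.5%), among them Ybx1, Tpt1, Btf3 and Pabpc1. Another 2, Eif4b and Eif2s3x, were higher (11.8%, background 18.9%), and the median of the list was -0.23. Vim and Ybx1 were the most abundant of them, at log2 fold changes of -0.31 (adjusted p = 0.249) and -1.08 (adjusted p = 0.00338). With the length trend removed (backgrounds 17.7% lower and 12% higher), 0 elongation factors were lower and 2 higher, with a median of 0.37. Of the other TOP mRNAs 1 was then lower and 3 higher, with a median of 0.14.

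Of 28 initiation factors 4 were lower (14.3%, background 22.5%), namely Eif3g, Eif3m, Eif2s2 and Eif5b, between -0.81 and -0.52. Another 10 were higher (35.7%, background 18.9%), and the median of the list was 0.21. The most abundant, Eif1 and Eif4a1, were at -0.23 and 0.22, neither past the threshold. Of 15 genes of the RNA polymerase I machinery, which makes ribosomal RNA, 3 were lower (Znrd1, Taf1b and Ttf1). Another 4 were higher (Polr1a, Polr1b, Rrn3 and Taf1c), and the median of the list was 0.03. These calls made 20% lower and 26.7% higher, beside the same backgrounds. Polr1a, the largest subunit, was at 1.95, and Polr1d and Polr1c, the most abundant, at -0.37 and -0.32, neither past the threshold. Of 49 ribosome biogenesis factors 9 were lower (18.4%) and 17 higher (34.7%), with a median of 0.20. The snoRNP proteins Nop58 and Nop56 were at 0.12 and -0.24, neither past the threshold. Of 15 regulators of mTORC1 and TOP translation 3 were lower (20%) and 8 higher (53.3%), with a median of 0.58. Myc and Rheb were the most abundant of them. Myc was at 0.48 (adjusted p = 0.0527). The lower calls were Rheb, the activator of mTORC1, at -1.06 (adjusted p = 0.00218), and the repressors of translation Eif4ebp1 at -0.81 (adjusted p = 0.00237) and Eif4ebp2 at -0.54 (adjusted p = 0.0365). The higher calls ranged from 0.58 to 1.74 and included Mtor at 1.58, Rptor at 1.74 and Larp1 at 1.49, which were chosen after their values were seen and have long transcripts (5061 to 6257 bases). With the length trend removed (backgrounds 17.7% lower and 12% higher), 2 of the 15 were lower and 7 higher, with a median of 0.54. The counts lower and higher were then 2 and 7 for initiation factors, 1 and 6 for polymerase I genes, and 1 and 17 for biogenesis factors.

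For scale, 67 of 78 mitochondrial ribosomal protein genes were lower and 1, Mrps5, higher, with a median of -0.98, and 27 of 31 proteasome genes were lower and 1, Psmd3, higher, with a median of -0.76. Mrpl33 and Mrpl42 were at -1.70 and -1.78, and Psmb6 and Psma3 at -1.49 and -0.84. With the length trend removed the medians were -0.42 for mitochondrial ribosomal proteins and -0.39 for the proteasome, while that of the cytosolic ribosomal proteins was 0.37. These values are descriptions beside the background of 22.5% lower and 18.9% higher, and the differences between the lists were not tested.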

How the data were processed

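RNA-seq of sorted MuSCs covered 5 mice and 8 libraries. Reads (75 bp, single end) were pseudo-aligned by the authors with kallisto 0.46.2 to Ensembl 96 transcripts of GRCm38, and they deposited estimated counts and TPM per transcript. Counts were added per gene and per mouse and rounded, and 0.647% to 0.756% of a library on transcripts without a gene was left out. The diets were compared with edgeR 4.0.16 (R 4.3.3), with TMM scaling, its filter on expression, the quasi-likelihood test and p-values adjusted by Benjamini-Hochberg over all genes at a threshold of 0.05. Standard errors derive from the F statistic, and length is weighted by TPM. The length trend was a loess fit (span 0.5) per mouse used as an offset. Alternatives included DESeq2 1.42.0 and limma 3.58.1 on log2(TPM + 1) or log2(TPM + 0.1). Methods were tested on simulated data of 17997 genes, of which 200 were changed. Of the changed genes edgeR called 162, DESeq2 178 and limma-voom 157, and of the unchanged genes 7, 61 and 6. Each replicate is a mouse, and with 2 CTRL mice the spread rests on a single difference. The members and lists were chosen with earlier results of these data known. Named were the 3 most abundant members per subunit, the 5 highest and 5 lowest, minority calls, paralogs, members with their own names, Rpl5, Rpl11, Rps6 and Rps19, and of other lists the 2 most abundant genes and calls where 5 or fewer, and some results under this rule are not reported here. Further genes in the accounts of copies, length and retained introns were chosen after their values were seen.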

Additional observations from a re-analysis of the deposited data

Results flagged for a closer look

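In 48 groups of 4 libraries, 3 values stood far from the other 3 libraries of their diet. The groups were the member share of counts, the retained-intron share of member counts and the CPM of named members, in each diet. Chance marks about 1 in 20 groups in this way. Rps19 in CTRL 2A was at 430.2 CPM, against 537 to 539 CPM in the other CTRL libraries, its technical replicate 2B included. Rpl39l in VA-free 3A was at 0.0440 CPM, from 2 counts, and at 0 in the other VA-free libraries. Rpl3l in VA-free 3B was at 0.0604 CPM, from 3 counts, against 0.376 to 0.418 CPM in the other VA-free libraries, its technical replicate 3A included.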

How the results depend on the processing

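The main fit called 31 members lower, as reported (22.5% of all genes), and 30 alternatives were run. The count kept within 1.5 times of 31 under other normalizations, filters, DESeq2, limma-voom, coding transcripts alone and added pseudogenes. It also did so under a length offset as in tximport. Effective lengths were equal in all libraries, so that offset holds only the mix of transcript forms and leaves the length trend in place. Over these alternatives 16.5% to 28.2% of all genes were lower. With libraries scaled to the members 7 were lower and 6 higher (median -0.0617, with 15.4% and 25.8% of all genes), and Rack1, Rplp2 and Rps19 turned to 0.0024, 0.12 and 0.10. With 1 library per mouse 9 were lower and 0 higher, against 17.7% and 12.9% of all genes, and Rpl3l and Rplp2 turned to 0.22 and 0.0031. With the length trend removed 1 was lower and 34 higher (median 0.37, with 17.7% and 12% of all genes). Fau, Rack1, Rpl13, Rplp0 and Rplp1 then turned to 0.19, 0.12, 0.38, 0.10 and 0.20. Rplp2, Rps14, Rps19, Rps25 and Rps6 turned to 0.64, 0.32, 0.61, 0.14 and 0.17. With log2(TPM + 1) 4 were lower and 13 higher (median 0.10, with all genes at 0.19 and 14.7% and 32.2% of them called), and Rack1, Rpl13, Rplp0, Rplp2, Rps14 and Rps19 turned to 0.0885, 0.13, 0.0502, 0.34, 0.021 and 0.31. With log2(TPM + 0.1) the counts were 4 and 13 (median 0.10, with all genes at 0.35 and 14.6% and 32.6% of them called). The same 6 turned to 0.0887, 0.13, 0.0502, 0.34, 0.0211 and 0.31. On both TPM scales the median of all genes rose as well, from 0.00 in the main fit. The share of members in TPM was 0.309 points higher on the VA-free diet, against a difference of -0.249 in counts.

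Of the alternatives, 2 were chosen after seeing the data. With copies added 0 were higher (19% of all genes), and Rpl11, Rpl12 and Rpl5 turned to -0.15, -0.46 and -0.46. With copies added and the length trend removed 1 was lower (17.7% of all genes) and 38 higher (12.2%), with a median of 0.38. Rpl5 turned to -0.23 in that fit. Fau, Rack1, Rpl13, Rpl31, Rpl38 and Rplp0 turned to 0.24, 0.12, 0.39, 0.20, 0.057 and 0.11. Rplp1, Rplp2, Rps14, Rps19, Rps25 and Rps6 turned to 0.27, 0.71, 0.38, 0.67, 0.21 and 0.20. Members called higher were 2 under DESeq2 (19.4% of all genes higher), limma-voom (19.6%), library size scaling (20.6%) and the length offset (18.7%). They were 0 under DESeq2 size factors (18.5%), the upper quartile (18.2%) and no filter (12.7%). They were also 0 under at least 1 CPM in every mouse (26.3%), 8 separate libraries (16.3%) and coding transcripts alone (20.3%). With coding transcripts alone Rpl12 turned to -1.24. Apart from the length, TPM and copy settings the cause was not tested.

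Leaving out a mouse or a library gave 12 to 44 members lower, 0 to 2 higher, a median of -0.44 to -0.21 and a share difference of -0.332 to -0.165 points. The count was 12 without VA-free mouse 1 (17.5% of all genes lower), 13 without VA-free mouse 2 (18.8%), 16 without CTRL mouse 1 (20.4%), 44 without CTRL mouse 2 (21.3%) and 12 without CTRL library 2B (16.1%). Of these 5, in all but the fit without CTRL mouse 2 the members' share was below that of all genes. Over these fits Rpl11 ranged from -0.0946 to 0.20, Rpl3l from -1.03 to 0.37, highest without CTRL 2B, and Rplp2 from -0.32 to 0.0214, highest without CTRL mouse 1. Replicate numbers did not pair mice (correlation of deviations -0.022 and 0.0058 for numbers 1 and 2). With the replicate number as a block 16 members were lower and 0 higher (16.1% and 13% of all genes), and Rpl11 turned to -0.0304.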
